A study of Mus musculus with 28 samples.

Results

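The 6 libraries described here come from primary mouse microglia of the APOE3 genotype. They are the 3 libraries of cells given tau and the 3 libraries of untreated cells whose titles end in SAN, and they were chosen by genotype, treatment and title out of 28 libraries in the series. The genotype label of all 6 reads WT, which the design text calls APOE3, and the untreated cells carry the treatment label Control, which does not say whether they received a vehicle. The labels give neither the form, dose or source of the tau, nor the time of exposure, nor the age and number of the mice. Nothing says that replicates were separate cultures or animals, so the p-values reflect variation among these libraries alone, and that variation may be technical. Libraries set beside them are 3 amyloid libraries of APOE3 cells with SAN titles, 3 tau and 2 untreated SAN libraries labelled Christchurch, the R136S variant of APOE3 (APOE3S/S in the design text), and 3 tau and 3 untreated APOE3 libraries of the second title series. What separates the 2 title series is not given in the labels. The series title names cGAS, STING and interferon signalling, and tau against untreated cells asks what tau does to these and other genes in cells without the variant. Libraries are called by the number in their title: tau 4 to 6, amyloid 7 to 9 and untreated 1 to 3.

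Microglia are the resident macrophages of the brain. They take up protein aggregates through scavenger receptors and heparan sulfate proteoglycans and digest them in lysosomes. Nucleic acid that reaches the cytosol is read by cGAS, which activates STING, and by the RIG-I family, and both routes lead to type I interferon. Secreted interferon acts through its receptor, JAK kinases and a complex of STAT proteins and IRF9 that binds the interferon-stimulated response element (ISRE) in the promoters of interferon-stimulated genes. A parallel route through NF-kB drives cytokine and chemokine genes.

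Counts came from a kit that reads the 3′ end of polyadenylated RNA. Library totals were 15784727 to 18035150 counts with tau and 14735870 to 17588495 counts in untreated cells, with 18220 to 19088 genes detected per library. Levels are given as CPM, a gene's count relative to the total count of its library, with no further scaling. Pairs of tau libraries differed by 9.17 to 15.3 times the counting variance and pairs of untreated libraries by 25.3 to 52 times, so no 2 libraries of a group agreed within sampling noise. The untreated libraries differed more among themselves than the tau libraries did, with an SD of log2 differences of 0.438 between untreated 1 and 3, against at most 0.264 between tau libraries. The microglia markers Aif1, Csf1r, P2ry12, Tmem119, Cx3cr1, Trem2, C1qa, Itgam and Ptprc had counts in all 6 libraries. Csf1r, the receptor for the survival factor CSF1, stood at 3110 to 3333 CPM with tau and 2018 to 2357 CPM in untreated cells. C1qa, a chain of the complement starter C1q, stood at 1888 to 1941 CPM with tau and 1660 to 2057 CPM in untreated cells. Tmem119 and Siglech, which mark microglia in the intact brain, were low. Tmem119 had 3.66 to 5.84 CPM with tau and 0.91 to 2.24 CPM in untreated cells. Siglech had 0, 0.0554 and 0.0561 CPM with tau and 0 in every untreated library. They do not stand for all such markers: the list of homeostatic microglia genes described below summed to 5861 to 6481 CPM with tau and 6891 to 7139 CPM in untreated cells. In bulk RNA, fewer cells of a type and less RNA per cell cannot be told apart.

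With tau, interferon-induced, cytokine, chemokine, antigen-presentation and antioxidant genes rose in large part, and a share of the genes of lysosomes, lipid handling and the disease-associated state of microglia fell. Of 12897 genes tested, 1583 rose and 1055 fell at an adjusted p under 0.05 in edgeR's quasi-likelihood test with Benjamini-Hochberg adjustment over all genes, which is the source of every adjusted p given here. That is 12.3% and 8.18% of the genes tested, or 20.5% in all, and these shares are the background for every list count that follows. The median log2 fold change over all genes was −0.01. Rises were larger than falls: 819 genes rose and 381 fell by more than 2-fold, 311 rose and 79 fell by more than 4-fold, and 132 rose and 14 fell by more than 8-fold. Of 11464 protein-coding genes tested 1471 rose and 1002 fell, and of 194 lincRNAs 20 rose and 17 fell, shares close to those over all genes. Without tau 5 the count of called genes was 1721, against 2638 with all libraries.

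**Figure D1:**
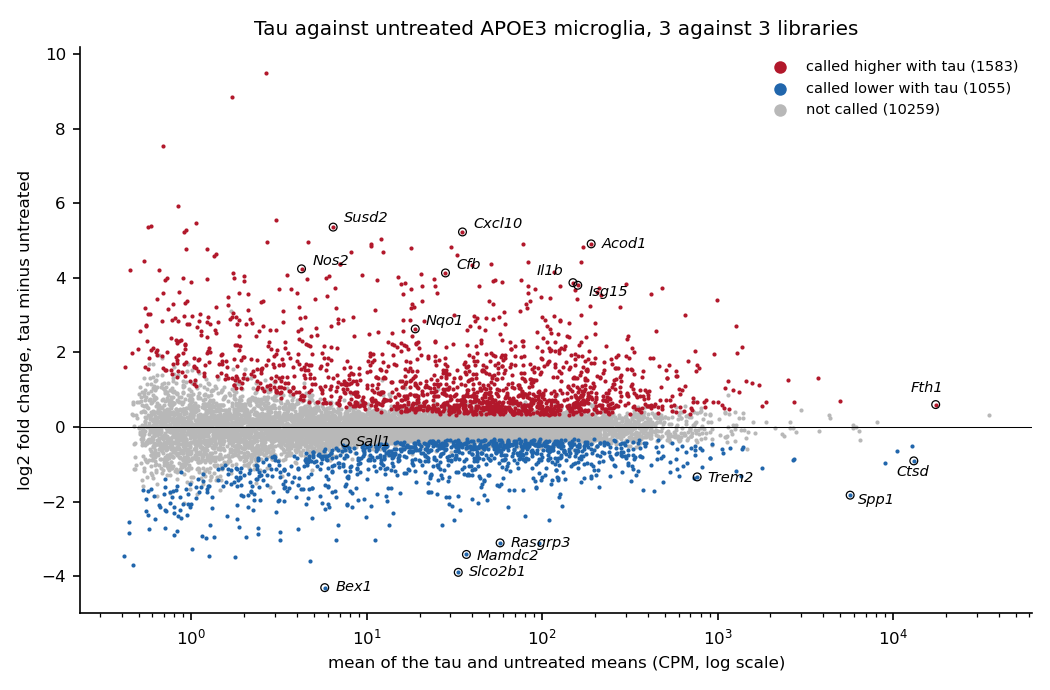
Log2 fold change of tau minus untreated (vertical) against the mean level in CPM (horizontal, log scale) for the 12897 genes tested, 1 point per gene, with 1583 called higher, 1055 called lower and some genes of the text ringed and named. The rises reach higher than the falls, with 132 genes above and 14 below 8-fold, and the abundant genes Spp1 and Ctsd lie among the falls.

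The largest rises among genes with a mean of at least 5 CPM were those of chemokines, GTPases, surface proteins and enzymes. Susd2 (chr10:75636706-75644008), a membrane protein with a sushi domain, had 11.3, 12.1 and 14.2 CPM with tau, against 0.455, 0.136 and 0.329 CPM in untreated cells, a log2 fold change of 5.36 ± 0.31 (SE, adjusted p = 3.1e-06). Cxcl10 (chr5:92346638-92348889), which draws T cells, had 61.5, 73 and 70.5 CPM with tau, against 1.42, 1.56 and 2.83 CPM in untreated cells, a change of 5.23 ± 0.21 (adjusted p = 1.4e-06). In both genes each tau library stood above each untreated one, and the fitted fold between the groups was 41.1 for Susd2 and 37.5 for Cxcl10. Both were picked for large rises. The share of all genes tested that separate in this way is not given, here or for genes named below. Car4, a carbonic anhydrase, followed at 5.04 ± 0.37, and Acod1 (chr14:103046977-103056573), which makes itaconate, at 4.91 ± 0.43. Ly6c2, a surface protein of inflammatory monocytes, had 135, 142 and 175 CPM with tau, against 2.96, 5.02 and 8.23 CPM in untreated cells, a rise of 4.90 ± 0.29. Tarm1, an activating receptor of myeloid cells, rose by 4.90 ± 0.25 and Ly6i by 4.82 ± 0.28. The chemokines Ccl12 and Ccl7 rose by 4.86 ± 0.30 and 4.80 ± 0.32, the GTPases Gbp4 and Tgtp2 by 4.83 ± 0.19 and 4.68 ± 0.23, and Traf1, a signalling adaptor of TNF receptors, by 4.69 ± 0.47. Members of the Gbp, Tgtp, Ly6, Ifit, Oas, Slfn, Apol9, Ccl and H2 families have near copies, and the counting could have split their reads, so the values of single members are uncertain.

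The deepest falls were fewer and of mixed function. Bex1 (chrX:136213972-136215513), an adaptor first described in neurons, had 0.561, 0.388 and 0.634 CPM with tau, against 14.8, 11.3 and 6.78 CPM in untreated cells, a change of −4.31 ± 0.38 (adjusted p = 3.3e-05). Slco2b1, an organic anion transporter, stood at 4.49, 4.44 and 2.98 CPM with tau, against 75.9, 84.4 and 27.2 CPM in untreated cells (−3.90 ± 0.41, adjusted p = 0.0001). Untreated 3 was the lowest of its group for both genes, and still above each tau library. Mamdc2 fell by 3.42 (SE 0.24), and Hpgd (chr8:56294585-56321043), which breaks down prostaglandins, by 3.11 (SE 0.24). Rasgrp3 (chr17:75435896-75529054), an activator of RAS and RAP, had 14.8, 10.6 and 8.68 CPM with tau and 97.4, 101 and 113 CPM in untreated cells, a change of −3.11 ± 0.17 (adjusted p = 2.7e-06). Neto2 changed by −3.04 ± 0.38, the phosphodiesterase Pde1c by −3.04 ± 0.19, and the nuclear receptor Nr4a1, an early response gene, by −2.62 ± 0.16. The protease Adamts1 and the serotonin receptor Htr2b also changed by −2.62, with SEs of 0.18 and 0.54, and Dkk2, a WNT antagonist, and the membrane protein Emp1 by −2.50 each (SE 0.12 each).

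Of 23828 genes with a count in the 6 libraries, 133 had 0 counts in every untreated library and some in every tau library. In 71 genes the reverse was found. Among genes at 0 in untreated cells, Il12b (chr11:44400063-44414033), the shared subunit of interleukin-12 and interleukin-23, had the most counts with tau, 272 over the 3 libraries at 4.15, 4.77 and 7.1 CPM. Taking 3 counts as the most that 0 allows over the untreated group, Il12b was at least 83.4-fold higher with tau. U90926, a long RNA gene of myeloid cells, had 172 counts with tau and 0 in untreated cells (at least 52.7-fold higher), and Artn, a growth factor of the GDNF family, had 70 and 0 (at least 21.5-fold higher). Il1f6, a cytokine of the interleukin-1 family, and Lypd6b had 27 counts each with tau and 0 in untreated cells, at least 8.28-fold higher. Ifnb1 (chr4:88522025-88522774), which encodes interferon-β, had 26 counts with tau, at 0.224, 0.499 and 0.824 CPM, and 0 counts in untreated cells, at least 7.97-fold higher. Il1f6, Lypd6b and Ifnb1 were below the filter on low counts and were not tested.

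All 52 interferon-induced antiviral effectors and all 18 interferon-induced GTPases on the lists used here rose with tau, with median log2 fold changes of 1.99 and 2.79. The lists were written with earlier results of these data known, so these counts describe the lists and are not an independent test. Their summed level was 16160 to 17928 CPM with tau and 4646 to 5348 CPM in untreated cells for the effectors, and 2179 to 2477 CPM with tau and 328 to 485 CPM in untreated cells for the GTPases. When any 1 of the 6 libraries was left out, 51 or 52 effectors and 17 or 18 GTPases were called. Isg15 (chr4:156199424-156200818), a ubiquitin-like modifier, had 258, 314 and 318 CPM with tau and 22.2, 26 and 19.2 CPM in untreated cells, a change of 3.80 ± 0.16 (adjusted p = 1.4e-06). Oasl1, an inhibitor of Irf7 translation, rose by 4.38 ± 0.19, Usp18, which removes ISG15 from its targets, by 2.94 ± 0.12, and Cmpk2, a mitochondrial nucleotide kinase, by 3.44 ± 0.21. No library of either group overlapped the other for these 4 genes, which were picked and do not stand for the whole list. How many of all genes tested show no overlap is not given here. The smallest rise among the effectors was that of Trim25, a ubiquitin ligase of the RIG-I route (0.46 ± 0.12), and the largest that of Slfn4 (4.62 ± 0.43). Gbp3 (chr3:142560026-142573209), one of the guanylate-binding proteins that attack pathogen vacuoles, had 139, 152 and 147 CPM with tau and 16.1, 20.2 and 14.1 CPM in untreated cells (3.20 ± 0.15).

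The ISRE core was searched as GAAA, any 2 bases and GAAA on both strands in the RefSeq promoter table for GRCm38.p6, which gives 250 bases before to 50 bases after each gene start. It was present in 3.44% of all 32851 windows and in 3.33% of those of genes tested. Among windows of genes that rose it was present in 8.31%, and in 18.2% where the rise exceeded 4-fold, against 2.39% for genes that fell. For antiviral effectors the count was 25 of 52 windows (48.1%) from 41 matched genes, and for the GTPases 11 of 13 windows (84.6%) from 12 matched genes. An NF-kB site, searched as GGGA, any base and TTTCC on both strands, was present in 1.23% of windows of genes that rose, 0.0955% of those that fell, 0.486% of those of all genes tested and 0.411% of all windows. An antioxidant response element, searched as TGAC, any 3 bases and GC on both strands, was present in 13.4% of windows of genes that rose, 14.4% of those that fell, 14.4% of those of all genes tested and 12.4% of all windows. Motifs were counted separately, and matches can overlap within a window. A match is a run of letters and not a site shown to be bound. Of 114 genes named by rule that had a window, 10 held an ISRE core and 1 an NF-kB site. Spp1, which fell, was among those with an ISRE core. The 250 bases before the start are shown for Isg15 (chr4:156200819-156201068, minus strand), Gbp3 (chr3:142559794-142560043, plus strand), Cxcl10 (chr5:92348890-92349139, minus strand) and Il6 (chr5:30012864-30013113, plus strand), to set the letters beside 4 of the genes that rose. Capitals mark the ISRE core in the first 3 and the NF-kB site in Il6, and adjoining capitals in Isg15 and Gbp3 are overlapping matches, which in Gbp3 lie on the opposite strand.
Isg15: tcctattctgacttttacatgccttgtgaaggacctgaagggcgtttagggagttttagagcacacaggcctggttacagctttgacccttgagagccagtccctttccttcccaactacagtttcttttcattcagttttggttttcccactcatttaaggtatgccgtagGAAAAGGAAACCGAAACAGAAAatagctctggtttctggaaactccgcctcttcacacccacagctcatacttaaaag
Gbp3: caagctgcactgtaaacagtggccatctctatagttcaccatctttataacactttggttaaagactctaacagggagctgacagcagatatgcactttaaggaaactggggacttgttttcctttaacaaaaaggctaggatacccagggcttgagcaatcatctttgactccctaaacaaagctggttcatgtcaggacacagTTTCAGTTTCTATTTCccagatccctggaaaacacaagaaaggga
Cxcl10: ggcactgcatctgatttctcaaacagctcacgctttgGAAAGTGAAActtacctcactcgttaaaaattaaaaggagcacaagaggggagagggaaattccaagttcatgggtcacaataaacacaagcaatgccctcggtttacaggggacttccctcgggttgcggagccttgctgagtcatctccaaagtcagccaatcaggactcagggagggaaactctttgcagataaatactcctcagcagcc
Il6: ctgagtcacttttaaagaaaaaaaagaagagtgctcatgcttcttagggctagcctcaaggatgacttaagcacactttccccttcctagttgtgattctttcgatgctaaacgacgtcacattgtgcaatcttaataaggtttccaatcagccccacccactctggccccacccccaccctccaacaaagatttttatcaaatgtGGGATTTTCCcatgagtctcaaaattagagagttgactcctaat

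Of 22 tested nucleic-acid sensors and adaptors, 15 rose and 2 fell (median 1.21). Zbp1, which senses Z-form nucleic acid, had 299, 365 and 343 CPM with tau and 34, 45.8 and 32.3 CPM in untreated cells, a change of 3.25 ± 0.17 (adjusted p = 1.7e-06). Ifi205, of the AIM2-like family, rose by 3.71 ± 0.16. Mb21d1, the gene of cGAS, had 34.2, 37.7 and 31.4 CPM with tau and 10.2, 16.6 and 15.5 CPM in untreated cells, a rise of 1.38 ± 0.16 (adjusted p = 0.00023). For Tmem173, which encodes STING, the rise was 0.80 ± 0.13 (adjusted p = 0.0015). The RNA sensors Ddx58 (RIG-I), Ifih1 (MDA5) and Dhx58 rose by 2.18 ± 0.14, 1.74 ± 0.13 and 2.12 ± 0.13. Enpp1 (chr10:24637914-24712159), which degrades the cGAS product cGAMP outside cells, fell to 11.4, 12.4 and 9 CPM with tau, against 49.8, 52.1 and 48.7 CPM in untreated cells (−2.12 ± 0.13, adjusted p = 4.3e-06). Tlr13, an endosomal sensor of bacterial ribosomal RNA, was the other gene that fell, by 0.97 (SE 0.11). The kinase Tbk1, which lies downstream of STING, did not pass (0.24 ± 0.10, adjusted p = 0.13), nor did the adaptor Mavs (0.16 ± 0.12, adjusted p = 0.41), while the related kinase Ikbke rose by 1.57 ± 0.16.

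Among interferon ligands, receptors and JAK-STAT-IRF factors, 11 of 23 rose and 1 fell (median 0.33). Irf7 (chr7:141262706-141266481), the factor that amplifies type I interferon, had 1042, 1285 and 1106 CPM with tau and 127, 160 and 171 CPM in untreated cells, a change of 2.99 ± 0.14. Stat2 rose by 2.02 ± 0.16 and Irf9 by 0.51 ± 0.11. The feedback inhibitors Socs1 and Socs3, which block JAK kinases, rose by 3.56 ± 0.19 and 2.08 ± 0.19. Values of the receptor chains Ifnar1 (0.18 ± 0.11), Ifnar2 (0.06 ± 0.10) and Ifngr1 (0.01 ± 0.13) did not pass the test, nor did that of Irf3 (−0.06 ± 0.13), the factor that STING activates. Irf8, a lineage factor of microglia, was the gene that fell, by 0.60 (SE 0.10).

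Cytokine genes rose in 15 of 20 tested cases and fell in 2 (median 1.56). Il1b (chr2:129364570-129371139), an inflammasome substrate, had 188, 297 and 353 CPM with tau and 16.4, 21.3 and 23.4 CPM in untreated cells, a change of 3.87 ± 0.25 (adjusted p = 4.5e-06). The receptor antagonist Il1rn had 158, 207 and 207 CPM with tau and 35.6, 36.6 and 32.4 CPM in untreated cells (2.53 ± 0.15). Il6 had 2.53, 4.88 and 8.17 CPM with tau and 0.0569, 0.271 and 0.198 CPM in untreated cells, a change of 4.96 ± 0.61 (adjusted p = 0.00028). Tau 4 was the lowest tau library for Il1b, Il1rn and Il6, and in each gene every tau library exceeded every untreated one. Tnf rose by 1.93 ± 0.22 and Tnfsf10, the death ligand TRAIL, by 3.23 ± 0.23. Tgfb1, which keeps microglia in their resting state, stood at 0.08 ± 0.13 (adjusted p = 0.72). The genes that fell were Vegfa (−0.55 ± 0.13) and Osm (−0.60 ± 0.17), and neither call held without tau 4 or in a fit of 11 SAN libraries. Without untreated 3, tau 5 or tau 6 the count of falls was 1.

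Of 21 tested chemokine genes 12 rose and 1 fell (median 2.04). Beside Cxcl10, Ccl7 and Ccl12, the rises included Ccl2 (3.78 ± 0.29) and Ccl5 (4.16 ± 0.53), ligands for monocytes and T cells, and Cxcl3 (3.90 ± 0.46) and Cxcl2 (2.61 ± 0.30), ligands for neutrophils. Ccl3 and Ccl4, which recruit leukocytes, stood at 0.07 ± 0.13 and 0.20 ± 0.18 and did not pass (adjusted p = 0.76 and 0.48). Ccl3 had mean levels of 72.9 CPM with tau and 73.2 CPM in untreated cells. Cxcl14 fell by 1.05 (SE 0.15).

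Pattern receptors and inflammasome genes rose in 16 of 22 cases with no falls (median 0.77), and NF-kB subunits and feedback genes in 17 of 24 with no falls (median 0.95). Clec4e (chr6:123281789-123289870), the Mincle receptor, had 638, 689 and 982 CPM with tau and 63, 70.8 and 73 CPM in untreated cells (3.57 ± 0.19, adjusted p = 2.1e-06). Tlr2 rose by 1.30 ± 0.11, the peptidoglycan sensor Nod2 by 1.91 ± 0.14 and the inflammasome sensor Nlrp3 by 1.17 ± 0.14. In the NF-kB list the adhesion molecule Icam1 rose by 2.29 ± 0.16, the inhibitor Nfkbie by 1.59 ± 0.12 and Birc3 by 1.57 ± 0.12. Subunits Nfkb2 (1.32 ± 0.10) and Relb (1.22 ± 0.10), which form the non-canonical dimer, rose, while Rela (0.15 ± 0.10) and Rel (−0.11 ± 0.13) did not pass.

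Enzymes of itaconate, arginine, nitric oxide and prostaglandin metabolism split, with 12 of 20 up and 4 down (median 0.76). Acod1 had 307, 362 and 434 CPM with tau and 8.59, 6.45 and 24.1 CPM in untreated cells, and Nos2, the inducible nitric oxide synthase, had 4.77, 10.1 and 9.25 CPM with tau and 0.114, 0 and 1.25 CPM in untreated cells (4.24 ± 0.70, adjusted p = 0.0018). Ass1, which regenerates arginine for that enzyme, rose by 3.68 ± 0.21 and Sod2, the mitochondrial superoxide dismutase, by 2.56 ± 0.13. Arg1, which competes with Nos2 for arginine, had 184, 207 and 230 CPM with tau and 471, 403 and 297 CPM in untreated cells (−0.84 ± 0.19, adjusted p = 0.0095), a call lost when the 11 untreated and tau SAN libraries shared the estimate of spread (adjusted p = 0.074). On the prostaglandin side, the synthases Ptges (3.37 ± 0.33) and Ptgs2 (2.17 ± 0.62) rose, while Hpgd and the prostaglandin D synthase Hpgds (−0.99 ± 0.11) fell.

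**Figure D2:**
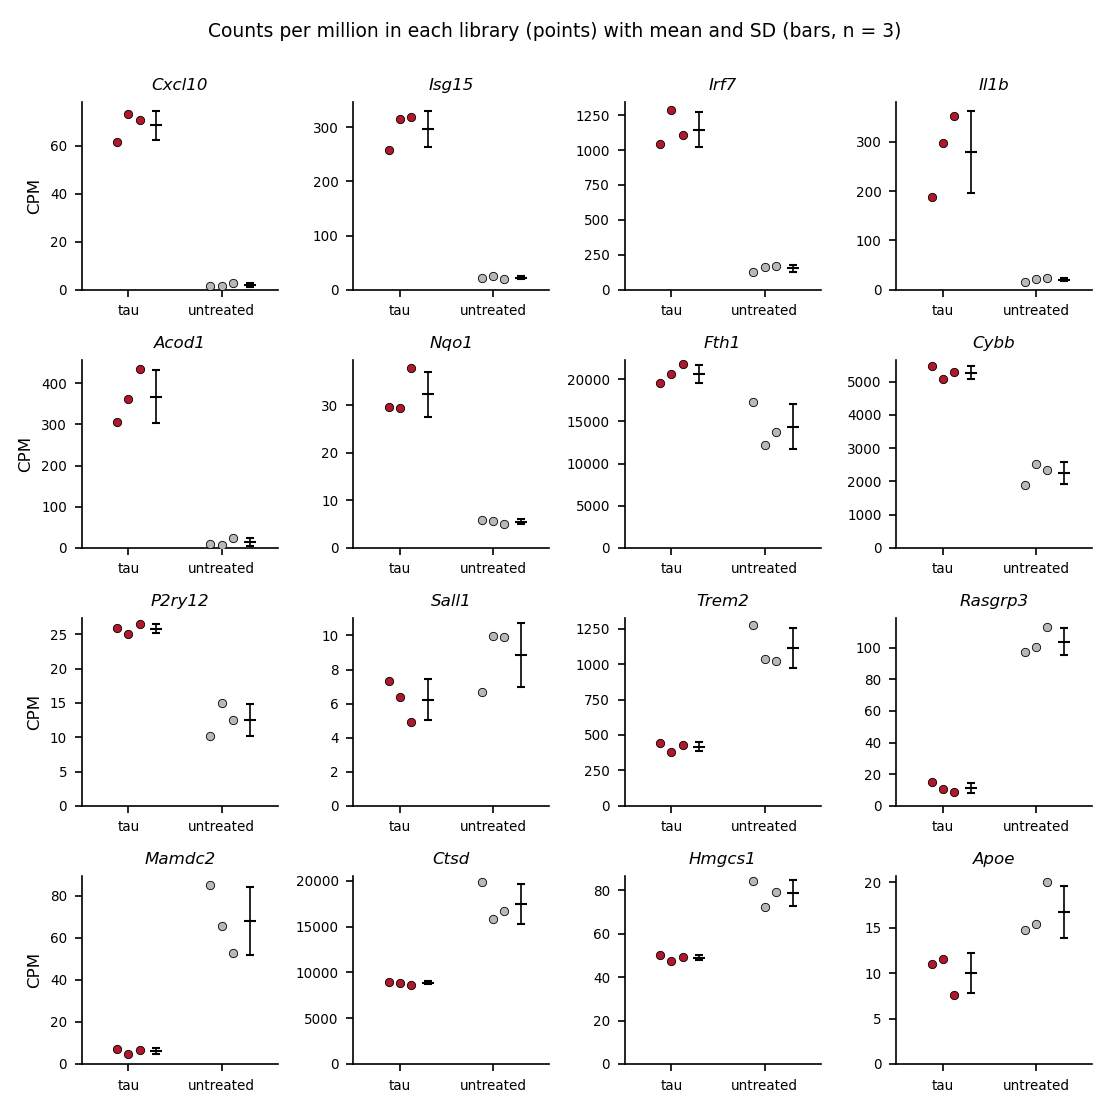
CPM (vertical, from 0, with a scale of its own per gene) of 16 genes in the 3 tau libraries (red points) and the 3 untreated libraries (grey points), with mean and SD (bars, n = 3). The genes were picked from those named in the text and do not stand for all genes. For Sall1 the tau libraries at 4.94 to 7.35 CPM overlap the untreated ones at 6.71 to 9.98 CPM.

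Antigen presentation genes rose. MHC class I and immunoproteasome genes rose in 19 of 22 cases with no falls (median 1.20), and MHC class II and co-stimulation genes in 8 of 13 with 1 fall (median 1.16). H2-K1, a classical class I heavy chain, had 5816, 6044 and 6107 CPM with tau and 3866, 3451 and 4473 CPM in untreated cells (0.69 ± 0.13, adjusted p = 0.0046). H2-T24 and H2-T22, non-classical members, rose by 2.29 ± 0.16 and 1.86 ± 0.13, the peptide transporter subunit Tap1 by 1.57 ± 0.14 and the class I transactivator Nlrc5 by 1.69 ± 0.20. H2-D1 and B2m did not pass (0.06 ± 0.12 and 0.23 ± 0.13). Cd40 and Icosl, ligands and receptors of T cell help, rose by 2.96 ± 0.19 and 2.30 ± 0.14, while Cd83 (chr13:43784775-43803132), a maturation marker of antigen-presenting cells, had 46.8, 48.5 and 45.2 CPM with tau and 154, 149 and 101 CPM in untreated cells (−1.45 ± 0.17).

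Complement genes rose in 7 of 19 cases and fell in 2 (median 0.32). C3 (chr17:57203970-57228136), the central component, had 2090, 2421 and 2076 CPM with tau and 262, 379 and 433 CPM in untreated cells, a change of 2.70 ± 0.17. The alternative-pathway protease Cfb had 51.6, 53.6 and 53.8 CPM with tau and 2.16, 2.31 and 5.2 CPM in untreated cells (4.13 ± 0.25), and the C1 protease genes C1s1 and C1rl rose by 4.96 ± 0.29 and 2.29 ± 0.14. The C1q chains C1qa, C1qb and C1qc stood at 0.12 ± 0.13, −0.09 ± 0.16 and −0.14 ± 0.13 and did not pass. The anaphylatoxin receptors C3ar1 (−0.47 ± 0.12) and C5ar1 (−0.44 ± 0.12) were the genes that fell, and neither was called without tau 5 or without tau 6, while the count of falls was 1 without tau 4 or untreated 2.

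NRF2 and antioxidant genes rose in 14 of 28 cases with no falls (median 0.54). Nqo1 (chr8:107388225-107403206), a quinone reductase, had 29.6, 29.4 and 37.8 CPM with tau and 5.91, 5.63 and 4.94 CPM in untreated cells, a change of 2.63 ± 0.17 (adjusted p = 4.4e-06). The peroxiredoxins Prdx5 and Prdx1, which reduce peroxides, rose by 1.96 ± 0.19 and 1.27 ± 0.20, and Prdx1 stood at 3118, 3104 and 4254 CPM with tau and 1905, 1377 and 1305 CPM in untreated cells. Slc7a11, the cystine importer, rose by 2.43 ± 0.28, whereas Hmox1, heme oxygenase, did not pass (0.07 ± 0.16, with mean levels of 528 CPM with tau and 534 CPM in untreated cells). Cybb (chrX:9435252-9487771), the catalytic subunit of the NADPH oxidase that makes superoxide, had 5462, 5085 and 5281 CPM with tau and 1876, 2531 and 2331 CPM in untreated cells (1.31 ± 0.14). By gain in mean CPM it was among the top 5 genes together with Fth1, H2-K1, Prdx1 and C3.

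In the iron and heme list 7 of 16 genes rose and 2 fell (median 0.10). Fth1, the ferritin heavy chain, had 19601, 20668 and 21752 CPM with tau and 17279, 12190 and 13700 CPM in untreated cells (0.60 ± 0.17, adjusted p = 0.035). That call was lost without untreated 2 or without any of the 3 tau libraries (adjusted p = 0.085 to 0.13). Lcn2, which binds bacterial iron carriers, rose by 4.11 ± 0.40, the transferrin receptor Tfrc by 0.87 ± 0.12 and the ferroxidase Cp by 1.27 ± 0.11. Slc40a1, the iron exporter ferroportin, had 58.2, 59.7 and 49 CPM with tau and 165, 216 and 128 CPM in untreated cells (−1.53 ± 0.18). Glycolysis genes rose in 7 of 23 cases and fell in 2 (median 0.33), with Pgk1 (0.80 ± 0.14), Pfkl (0.73 ± 0.12) and the lactate exporter Slc16a3 (0.67 ± 0.10) among the rises. Of 27 nuclear genes of oxidative phosphorylation 3 rose, namely Cycs (1.01 ± 0.12), Cyc1 (0.48 ± 0.12) and Sdhb (0.57 ± 0.16), and the last pair lost the call without untreated 2, tau 5 or tau 6. Without untreated 1 the count of rises was 8, and without untreated 2, tau 5 or tau 6 it was 1. None of the 14 mitochondrial transcripts tested was called.

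**Figure D3:**
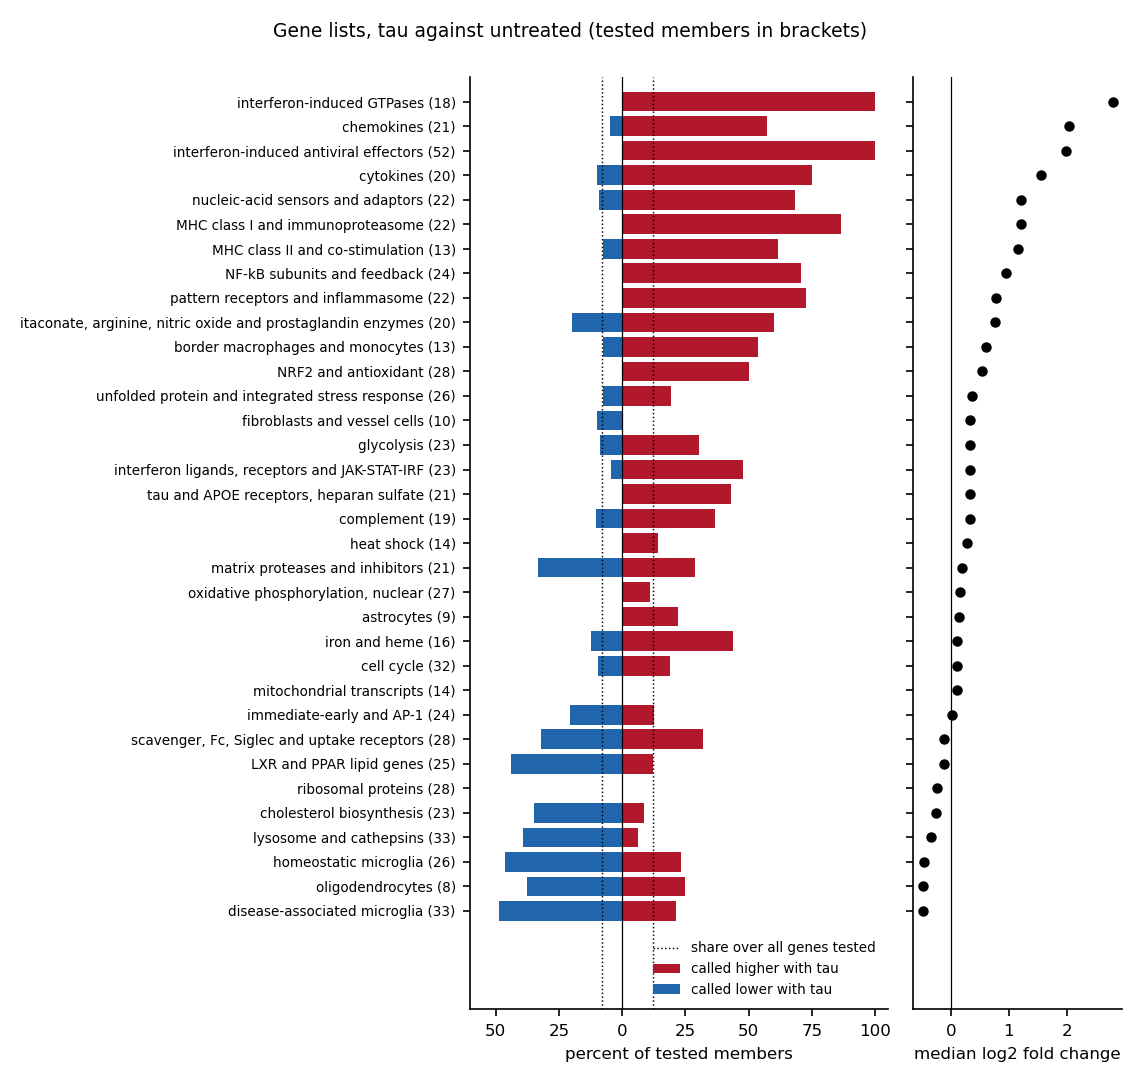
Percent of tested members called higher (red, to the right) and lower (blue, to the left) with tau in each list with at least 5 tested members (number in brackets), and the list's median log2 fold change (right panel). Dotted lines give the shares over all genes, 12.3% higher and 8.18% lower. Interferon-induced GTPases and antiviral effectors reach 100% higher, and disease-associated and homeostatic microglia genes have the lowest medians with oligodendrocyte markers. The lists were written with earlier results of these data known.

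Homeostatic microglia genes, which mark resting cells in the brain, did not move as 1 group: 6 of 26 rose and 12 fell (median −0.47). P2ry12 (chr3:59216272-59262871), the ADP receptor that guides processes to injury, rose, with 25.9, 25.1 and 26.4 CPM with tau and 10.2, 14.9 and 12.4 CPM in untreated cells (1.13 ± 0.14, adjusted p = 0.00034). The neighbouring P2ry13 rose by 1.86 ± 0.17, Tmem119 by 1.69 ± 0.34 and Csf1r by 0.66 ± 0.12. The lowest log2 fold change of the list was −3.90, the value given above for Slco2b1. The falls included Rnase4 (−2.14 ± 0.19), Gpr34 (−2.10 ± 0.29), Entpd1, an enzyme that removes extracellular ATP (−1.41 ± 0.12), and the lineage factor Mef2c (−0.98 ± 0.13). Sall1, a transcription factor of microglial identity, did not pass (−0.42 ± 0.20, adjusted p = 0.19). Cx3cr1, the fractalkine receptor, had 70.9, 35.8 and 46.2 CPM with tau and 50.1, 49.3 and 72.5 CPM in untreated cells, with overlapping groups (−0.09 ± 0.23, adjusted p = 0.85). Aif1, the cytoskeletal protein IBA1, had 93.4, 92 and 90.4 CPM with tau and 32.1, 28.2 and 23.5 CPM in untreated cells (1.79 ± 0.14).

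Disease-associated microglia genes, a programme described in amyloid mouse models, fell in 16 of 33 cases and rose in 7 (median −0.49). Trem2 (chr17:48346401-48354147), the lipid and APOE receptor that this programme requires, had 444, 381 and 429 CPM with tau and 1278, 1035 and 1024 CPM in untreated cells, a change of −1.34 ± 0.14 (adjusted p = 0.00011). Its signalling partner Tyrobp did not pass (−0.30 ± 0.17, adjusted p = 0.28). Spp1, osteopontin, had 2661, 2218 and 2339 CPM with tau and 10767, 7598 and 8641 CPM in untreated cells (−1.83 ± 0.17), and Gpnmb, a lysosomal membrane protein, 6054, 6046 and 5437 CPM with tau and 11537, 10783 and 14158 CPM in untreated cells (−0.98 ± 0.14). Lpl (−0.85 ± 0.20), Cd9 (−0.96 ± 0.18), Igf1 (−0.82 ± 0.13) and Lgals3 (−0.88 ± 0.17) fell as well. Against that direction, Cst7, an inhibitor of cathepsins, had 17.9, 20.5 and 21.3 CPM with tau and 2.27, 1.97 and 2.96 CPM in untreated cells (3.13 ± 0.18), and Ch25h, which makes 25-hydroxycholesterol and is induced by interferon, rose by 2.54 ± 0.22. Itgax did not pass (0.61 ± 0.20, adjusted p = 0.057).

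Apoe (chr7:19696109-19699188) is given here under its mouse symbol and coordinates, and 3′ counts check nothing of the APOE3 allele. Whether its reads came from an intact mouse gene was not tested. It had 11.1, 11.5 and 7.54 CPM with tau and 14.7, 15.4 and 20 CPM in untreated cells (−0.65 ± 0.18, adjusted p = 0.027), and the call was lost without untreated 3, tau 4 or tau 6 (adjusted p = 0.052 to 0.096).

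Lysosome and cathepsin genes fell in 13 of 33 cases and rose in 2 (median −0.34), with 8 falls when tau 4 or tau 6 was left out. Ctsd (chr7:142375911-142388038), an aspartic protease of the lysosome, had 8974, 8884 and 8659 CPM with tau and 19910, 15779 and 16720 CPM in untreated cells (−0.91 ± 0.15, adjusted p = 0.0017). Ctsb stood at 8163, 8240 and 7507 CPM with tau and 13502, 11666 and 14553 CPM in untreated cells (−0.65 ± 0.14). With Spp1, Gpnmb and Psap, the precursor of saposins (−0.51 ± 0.14, not called without any 1 of the tau libraries), these were the 5 genes that lost the most CPM. The proton pump subunit Atp6v0d2 fell by 1.48 (SE 0.14) and Ctsl by 1.11 (SE 0.15). The genes that rose were Ctsc (1.22 ± 0.16) and Ctsz (0.56 ± 0.13), with 1 rise without tau 5 or tau 6. The transcription factor Tfeb, which drives lysosomal genes, did not pass (−0.37 ± 0.14, adjusted p = 0.1).

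Lipid genes fell in part. Of 25 LXR and PPAR lipid genes 11 fell and 3 rose (median −0.13), with 6 falls without tau 4 and 7 without tau 5, and 5 rises without untreated 3. Fabp4, a fatty acid carrier, had 42.4, 48.2 and 50.2 CPM with tau and 281, 229 and 124 CPM in untreated cells (−2.11 ± 0.27), Pparg fell by 1.93 (SE 0.26) and the lipid droplet coat Plin2 by 1.31 (SE 0.15). The cholesterol exporters Abca1 (0.69 ± 0.24) and Abcg1 (0.25 ± 0.20), direct LXR targets, did not pass. In cholesterol biosynthesis 8 of 23 genes fell and 2 rose (median −0.26), with 2 falls without tau 5 and 1 when the 11 untreated and tau SAN libraries shared the estimate of spread. Hmgcs1, at the head of the pathway, had 50.1, 47.6 and 49.3 CPM with tau and 84.1, 72.3 and 79.4 CPM in untreated cells (−0.61 ± 0.11, adjusted p = 0.003), and its adjusted p was 0.051 in that shared fit. The count of rises was 0 without tau 6 and 1 without untreated 2 or tau 4.

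Scavenger, Fc, Siglec and uptake receptors split evenly, with 9 of 28 up and 9 down (median −0.12). Siglece, an inhibitory receptor for sialic acid, had 32.7, 33.2 and 30.7 CPM with tau and 3.75, 4.07 and 3.29 CPM in untreated cells (3.19 ± 0.14, adjusted p = 1.4e-06), the Fc receptor Fcgr1 rose by 1.49 ± 0.15, and the scavenger receptors Marco and Msr1 by 1.97 ± 0.22 and 0.66 ± 0.13. Gas6, which bridges dying cells to the receptors AXL and MERTK, fell by 1.71 (SE 0.12), the bridging protein Mfge8 by 1.46 (SE 0.15) and the fatty acid receptor Cd36 by 1.13 (SE 0.15). Of 21 genes for tau and APOE receptors and heparan sulfate 9 rose and none fell (median 0.32), while 2 fell without untreated 1 and 1 fell in DESeq2. Untreated 1 had the lowest summed level of this list, 2574 CPM, against 3894 CPM in untreated 2 and 4176 CPM in untreated 3. The rises were led by proteoglycan cores that carry heparan sulfate, Agrn (2.28 ± 0.15), Sdc1 (2.30 ± 0.19) and Gpc1 (1.76 ± 0.21), and by the sorting receptor Sorl1 (1.11 ± 0.17). Lrp1, a receptor for tau and APOE, did not pass (−0.59 ± 0.22, adjusted p = 0.099).

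Matrix proteases and inhibitors rose in 6 of 21 cases and fell in 7 (median 0.19). Their summed level was 3258 to 3396 CPM with tau and 3824 to 4285 CPM in untreated cells. The lowest log2 fold change of the list was −2.62, the value given above for the protease Adamts1. Mmp9, a gelatinase, had 57.7, 74.8 and 82.7 CPM with tau and 5.69, 8.21 and 15.6 CPM in untreated cells (2.97 ± 0.30), and Mmp14 and Serpinb2 rose by 3.78 ± 0.47 and 3.58 ± 0.78. Immediate-early and AP-1 genes rose in 3 and fell in 5 of 24 cases (median 0.02), with Ier3 (1.95 ± 0.19) on the higher side and Atf3 (−1.60 ± 0.12), Egr1 (−1.24 ± 0.18) and Jun (−1.11 ± 0.13) on the lower. The count of rises was 1 without tau 5, and that of falls 8 with no filter on low counts. In the unfolded protein and integrated stress response list 5 of 26 rose and 2 fell (median 0.36), while 12 rose without untreated 1, 8 without untreated 3 and 3 without tau 5 or tau 6. The count of falls was 1 without any of the tau libraries in turn. Heat shock genes rose in 2 of 14 cases (Hspa1a and Hspa1b) and in 4 without untreated 1, and the call of Hspa1a (1.61 ± 0.47) was lost when any library but untreated 3 was left out. Cell cycle genes rose in 6 and fell in 3 of 32 cases (median 0.10), the rises including Mki67 (0.99 ± 0.16), Mcm5 (1.06 ± 0.15) and Rrm2 (1.29 ± 0.19). The count of falls was 0 without tau 6, 1 without tau 4 or tau 5 and 5 without untreated 3. None of the 28 ribosomal protein genes was called (median −0.24), with 3 lower in DESeq2 and without untreated 3 and 2 lower without untreated 2.

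Marker lists of astrocytes, oligodendrocytes, neurons, and granulocytes and lymphocytes each summed to at most 245 CPM in a library. Those of border macrophages and monocytes, and of fibroblasts and vessel cells, each summed to at least 1029 CPM. Which cells these reads came from was not tested. Of 13 tested markers of border macrophages and monocytes, 7 rose and 1 fell, and 4 rose when untreated 2, tau 4 or tau 6 was left out. Their summed level was 1465 to 1511 CPM with tau and 1029 to 1444 CPM in untreated cells, and Lyve1 had 0 counts in every tau library. Members that rose included Ly6c2, with 135, 142 and 175 CPM with tau and 2.96, 5.02 and 8.23 CPM in untreated cells, and Vcan (2.15 ± 0.30). Ccr2, the receptor of infiltrating monocytes, did not pass (0.37 ± 0.43). The count of falls was 4 without untreated 3. Astrocyte markers summed to 73.8 to 90.7 CPM with tau and 48.8 to 64.6 CPM in untreated cells, with 2 of 9 called higher, Aldh1l1 and Slc1a2. The call of Slc1a2 was lost without untreated 2, tau 5 or tau 6 (adjusted p = 0.074 to 0.085), and Gfap had mean levels of 2.26 CPM with tau and 2.71 CPM in untreated cells. Oligodendrocyte markers summed to 234 to 245 CPM with tau and 192 to 221 CPM in untreated cells, with 2 of 8 higher (Mag and Cnp) and 3 lower, while the count of falls was 0 without tau 5 and 1 without tau 4 or tau 6. Neuronal markers summed to 1.27 to 2.61 CPM with tau and 4.21 to 5.66 CPM in untreated cells, none of 14 had enough counts to be tested, and Gad2 was at 0 in all 6. Fibroblast and vessel markers summed to 1563 to 1719 CPM with tau and 1297 to 2066 CPM in untreated cells, mostly Fn1, with 1 of 10 lower and none higher (1 higher without untreated 2 and 2 without untreated 3), and Cldn5 at 0 in all 6. Granulocyte and lymphocyte markers summed to 19.4 to 26.4 CPM with tau and 9.88 to 16.2 CPM in untreated cells, 1 of 3 tested rose (Camp, with 1.4, 1.39 and 2.15 CPM with tau and 0, 0 and 0.0659 CPM in untreated cells), and S100a9, Ly6g and Cd3e were among 10 markers at 0 in all 6. The part of these cells in the changes above was not tested.

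The tau effect with SAN titles was larger for many genes than in the second title series, whose 3 tau and 3 untreated APOE3 libraries share none with it. In a test of the difference between both effects, 630 genes had a higher and 476 a lower log2 fold change in the SAN series, which is 4.59% and 3.47% of 13711 tested, or 8.07% in all. The total of 1106 was 515 with the replicate number as a block, 683 without SAN tau 5 and 701 without SAN tau 6. Antiviral effectors had a median of 1.98 in the SAN series and 0.87 in the second, and 36 of 52 differed, all with the higher value in SAN. For GTPases the medians were 2.79 in SAN and 1.42 in the second series, and 13 of 18 differed. The summed effector level was 7976 to 14174 CPM with tau and 6126 to 6281 CPM in untreated cells of the second series, so the tau libraries there spread more widely. Untreated levels of the 2 series were not alike for every list. Chemokines summed to 1515 to 2397 CPM in untreated SAN cells and 5280 to 6866 CPM in those of the second series. MHC class I and immunoproteasome genes summed to 15420 to 18599 CPM and 10748 to 11563 CPM in the same order. The part of these levels in the differences was not tested. Isg15 stood at 3.80 in SAN and 1.68 in the second series, a difference of 2.11 ± 0.42 (adjusted p = 0.0068), while that of Cxcl10 (2.15 ± 0.84) did not pass (adjusted p = 0.15). Sensors differed higher in 10 of 22 cases and lower in 2, and NF-kB genes higher in 12 of 24 and lower in none. Tnf had no rise in the second series (−0.03 ± 0.22), and its difference of 1.95 ± 0.32 passed (adjusted p = 0.0018). Mb21d1 and Tmem173 stood at 0.17 ± 0.17 and 0.05 ± 0.12 in the second series, and their differences of 1.20 ± 0.25 and 0.75 ± 0.17 passed (adjusted p = 0.0083 and 0.015).

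**Figure D4:**
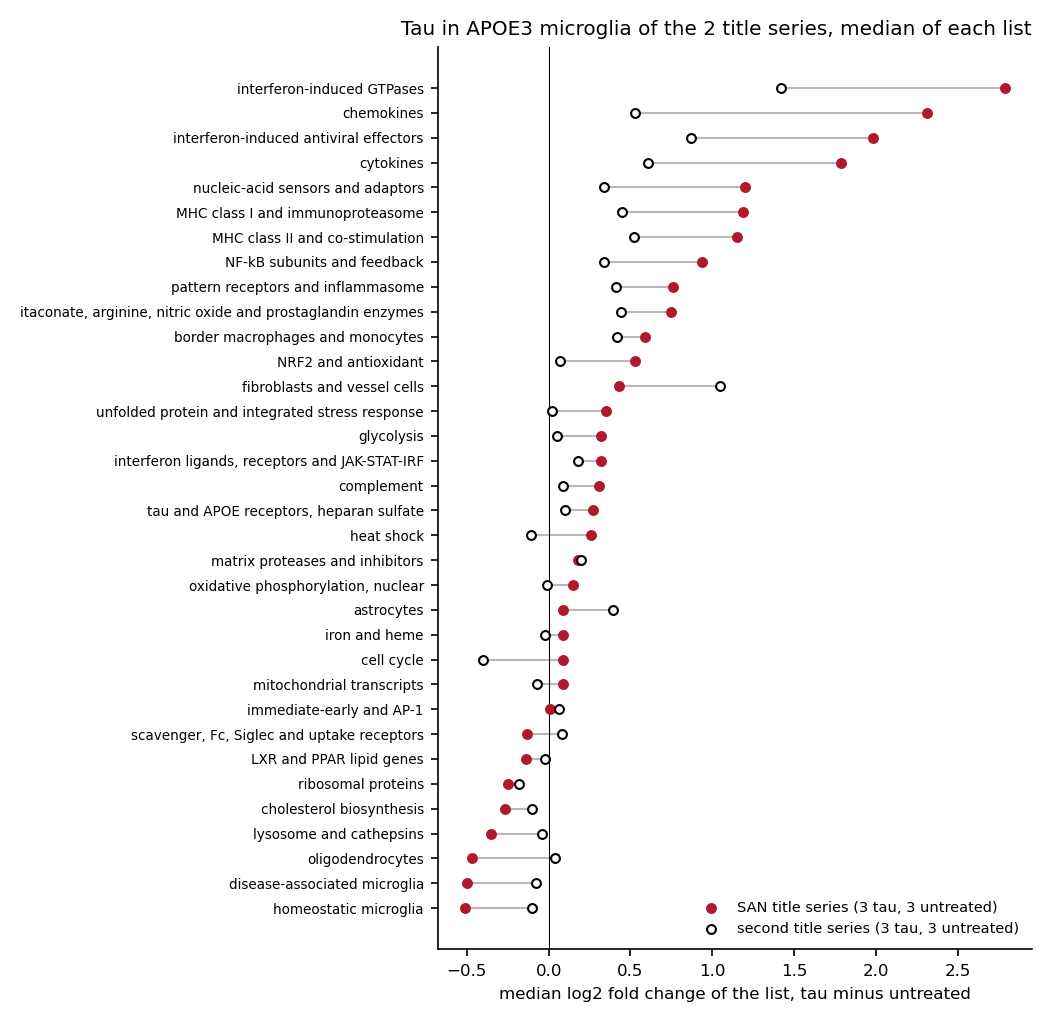
Median log2 fold change of tau minus untreated per gene list (horizontal) in APOE3 cells of the SAN title series (red) and the second title series (open circles), 3 tau and 3 untreated libraries each, for lists with at least 5 tested members. Antiviral effectors lie at 1.98 in SAN and 0.87 in the second series, and cell cycle genes at 0.09 in SAN and −0.40 in the second series.

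Among single genes that differed, some had no called tau effect in the second series and others an opposite effect. Cst7 rose by 3.13 in SAN and stood at 0.05 ± 0.16 in the second series (difference 3.07 ± 0.27, adjusted p = 0.0001). Emp1 had 30.7, 31.3 and 32.6 CPM with tau and 203, 180 and 181 CPM in untreated SAN cells, and a change of 0.00 ± 0.12 in the second series (difference −2.51 ± 0.18, adjusted p = 9.5e-06). Arg1 fell in SAN and rose by 0.85 ± 0.18 in the second series, and the difference of −1.71 ± 0.25 passed (adjusted p = 0.00084). Apoe stood at 0.26 ± 0.15 in the second series (difference −0.92 ± 0.22, adjusted p = 0.018). Cell cycle genes differed higher in 11 of 32 cases with no case lower. Uhrf1, a DNA methylation factor outside that list, stood at −0.91 ± 0.16 in the second series and rose in SAN (difference 2.40 ± 0.24). Vcan, a matrix proteoglycan, rose by 2.15 in SAN and 2.21 ± 0.26 in the second series, and the difference did not pass (−0.07 ± 0.36, adjusted p = 0.95). What else differed between the series, such as date, cells or tau preparation, is not given in the labels and cannot be told apart from the title.

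Between genotypes of the SAN titles, untreated Christchurch library 3 stood apart. Its antiviral effectors summed to 16569 CPM, against 5686 CPM in the other untreated Christchurch library, 17743 to 18549 CPM in the 3 Christchurch tau libraries and 4646 to 5348 CPM in the untreated APOE3 libraries. With it in the fit, the test of the tau effect in APOE3 minus that in Christchurch cells called 0 of 13776 genes (0%) in edgeR, DESeq2 and limma-voom, with 657 at an unadjusted p under 0.05, while edgeR with no filter on low counts called 369. Without untreated Christchurch 3 the count was again 0, and without untreated Christchurch 2, which leaves library 3 as the lone control, it was 466. The lone control is then assumed to vary like the other groups. For the effectors the median was 2.00 in APOE3 and 0.76 in Christchurch cells in the fit of all 11 libraries. In that fit Isg15 stood at 3.81 in APOE3 and 1.35 in Christchurch cells, with an unadjusted p of 0.0081 for the difference, while for Il1b, at 3.88 in APOE3 and 3.49 in Christchurch cells, it was 0.46. A missed threshold does not show that the genotypes respond alike.

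Tau and amyloid in APOE3 cells of the SAN titles were compared directly, since each shares the untreated libraries. Of 13391 genes 1087 were higher and 748 lower with tau than with amyloid, which is 8.12% and 5.59%, or 13.7% in all. The total of 1835 was 2822 without untreated 1, and 995 to 1190 without tau 5, tau 6 or any of the amyloid libraries. Differences over 2-fold made up 347 of the higher and 195 of the lower genes. Antiviral effectors summed to 16160 to 17928 CPM with tau and 11106 to 11825 CPM with amyloid, and 44 of 52 were higher with tau and none lower, with a median difference of 0.70. Cxcl10 had 61.5, 73 and 70.5 CPM with tau and 12.3, 11.8 and 14.9 CPM with amyloid (difference 2.49 ± 0.15, adjusted p = 8e-06). Il1rn had 158, 207 and 207 CPM with tau and 43.7, 48.6 and 42.2 CPM with amyloid (difference 2.18 ± 0.13), beside 32.4 to 36.6 CPM in untreated cells. Il1b was higher with tau by 3.20 ± 0.25 and Il6 by 4.80 ± 0.54, with Il6 at 0.166 to 0.214 CPM with amyloid.

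Antioxidant and metabolic lists separated the treatments as well. NRF2 genes were higher with tau in 19 of 28 cases and lower in none, and Nqo1 had 29.6, 29.4 and 37.8 CPM with tau and 6.68, 7.17 and 6.24 CPM with amyloid (difference 2.36 ± 0.15, adjusted p = 8e-06). Glycolysis genes were higher with tau in 12 of 23 cases and lower in 1. Cholesterol biosynthesis genes were lower with tau in 12 of 23 cases and higher in none, with Hmgcs1 at 50.1, 47.6 and 49.3 CPM with tau and 69.6, 79.9 and 87.5 CPM with amyloid (difference −0.60 ± 0.10). Rasgrp3 had 14.8, 10.6 and 8.68 CPM with tau and 80.5, 51.3 and 69.6 CPM with amyloid (−2.47 ± 0.19), and Enpp1 differed by −1.61 ± 0.12, the sialyltransferase St6gal1 by −1.23 ± 0.09 and the co-stimulatory receptor Cd28 by −1.14 ± 0.08. P2ry12 did not separate the treatments, with 25.9, 25.1 and 26.4 CPM with tau and 24.9, 24.5 and 24.6 CPM with amyloid (difference 0.16 ± 0.11, adjusted p = 0.43), and Cx3cr1 was lower with tau, at 70.9, 35.8 and 46.2 CPM with tau and 116, 102 and 122 CPM with amyloid (−1.06 ± 0.21, adjusted p = 0.0054).

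**Figure D5:**
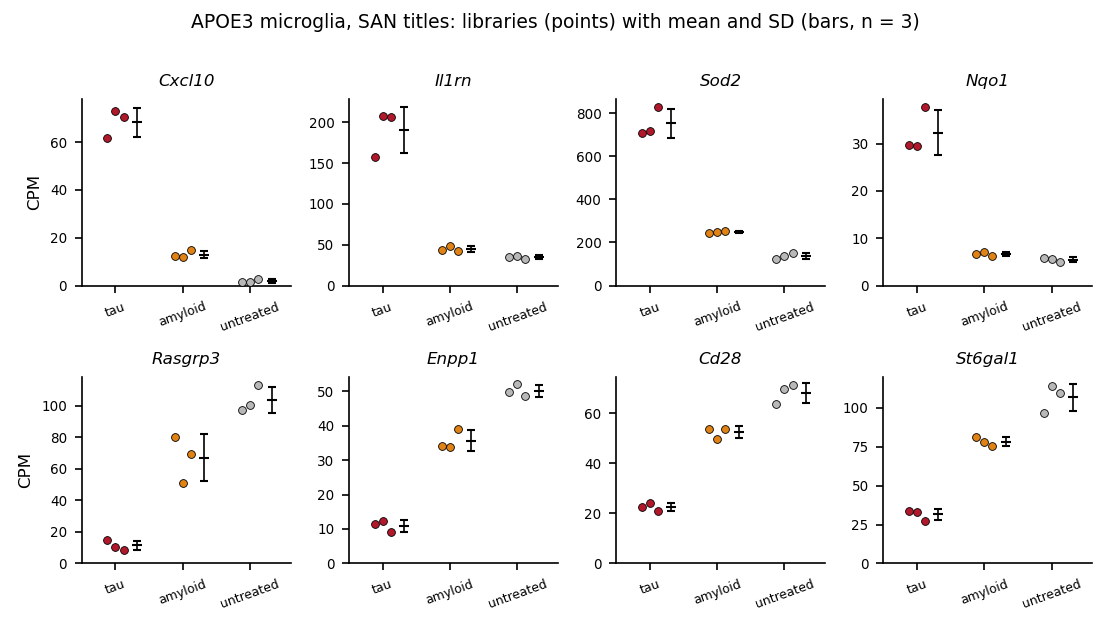
CPM (vertical, from 0, with a scale of its own per gene) in the tau (red), amyloid (orange) and untreated (grey) APOE3 libraries of the SAN titles, with mean and SD (bars, n = 3), for the 4 genes with the smallest p in each direction of tau against amyloid. Because of that choice, tau stands above amyloid in the upper row and below it in the lower row.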

How the data were processed

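The authors deposited 2 tables of gene counts, whole numbers that were not normalised, for 28 libraries made with the QuantSeq 3′ forward kit, per the labels' protocols. The submitters' processing notes name the build GRCm38 (mm10) and DESeq2 1.38.3. No source used here gives the aligner, the counter or its strand setting. Each table held 60976 entries. Of these, 6360 held no number, 81 were exact repeats, 99 more shared a symbol and were removed, and 3 date-like symbols shared by several entries were removed, which left 54424. Dates stood in place of 24 symbols, and none of these is named. The 5 libraries in both tables were identical and entered a single time.

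After filterByExpr and TMM scaling, the counts were fitted with edgeR's quasi-likelihood model (edgeR 4.0.16, R 4.3.3), and p-values were adjusted by Benjamini-Hochberg across every gene of a fit, on the 6 libraries alone for tau against untreated, 12 for the title series, 11 for the genotypes and 9 for amyloid. Values after ± are standard errors of log2 fold changes. The scripts were tested on simulated data. Genes were named by rule: 12 called changes at either end with a mean of 5 CPM or more, the 3 smallest p in each of 36 lists, the 4 smallest p in each direction of the other comparisons, the 5 largest gains and losses in CPM, the 5 genes at 0 in untreated cells with the most counts, and fixed genes; list members quoted beyond these were chosen after their values were seen. Some genes that the rule names are not reported here. The libraries and lists were chosen with earlier results of these data known. Coordinates are from GENCODE M21 (GRCm38), which had 12810 of the 12897 symbols, and promoters from RefSeq, which had 9490. Alternatives were RLE scaling, no filter, a minimum of 10 CPM, DESeq2 1.42.0, limma-voom (limma 3.58.1), a shared fit and leaving out each library. Floors and depths cover counting error only.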

Additional observations from a re-analysis of the deposited data

Results flagged for a closer look

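The tau effect in APOE3 cells differed between the SAN titles and the second title series in 1106 genes by a test of the difference itself, and in 515 with the replicate number as a block. The 4 genes with the smallest p in each direction of that test were Cst7, Gpr85, Uhrf1 and Dcbld2, whose log2 fold change was higher in SAN by 3.07, 2.67, 2.40 and 1.56, and Emp1, Adamts1, Fbxo32 and Rgs1, for which SAN minus the second series was −2.51, −2.26, −2.40 and −2.39. Gpr85 had 6.4, 6.99 and 6.97 CPM with tau and 1.14, 1.36 and 1.71 CPM in untreated SAN cells, and its change in the second series was −0.32 ± 0.16. Rgs1 had 25.1, 21.5 and 26.6 CPM with tau and 153, 101 and 154 CPM in untreated SAN cells, and stood at −0.02 ± 0.16 in the second series.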

How the results depend on the processing

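The count of 2638 genes called for tau against untreated was 2636 with RLE scaling, 2845 with DESeq2, 2654 with limma-voom, 3121 with no filter, 1995 at a minimum of 10 CPM and 2613 with 11 SAN libraries in the fit, and 1721 (without tau 5) to 2990 when 1 library was left out. Of 137 named genes called, 125 were called under every alternative that tested them. Many of these were picked for large changes or small p in the main fit, so they do not stand for all called genes. Among the median values of 35 lists, 28 moved by more than the median standard error of the list's members under an alternative. Cx3cr1, not called, stood at −0.09 with all libraries, 0.08 without untreated 3 and 0.11 without tau 5, and at −0.39 at its lowest, without tau 4. For SAN minus the second series the count of 1106 was 515 with a replicate block, although libraries of the same number did not deviate together (correlations of −0.23 to 0.013 over 6 pairs), 1583 with no filter, and 683 (without tau 5) to 1290 with 1 library left out; it was 701 without tau 6. For APOE3 minus Christchurch it was 0 with the replicate block, 369 with no filter, and 0 to 466 with 1 library left out. For tau against amyloid, 1835 genes became 2397 with no filter and 995 (without tau 6) to 2822 (without untreated 1) with 1 library left out; it was 1108 without tau 5, and 1112, 1190 and 1053 without amyloid 7, 8 and 9. The causes were not tested. No paired analysis was possible because tau, amyloid and untreated libraries share no number, for tau against untreated and tau against amyloid. Depth limits genes under about 1 CPM, such as Ifnb1 with 26 counts.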
